A study of Drosophila melanogaster with 9 samples.

Results

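The nuage and ping-pong genes examined here are vas, aub, AGO3, qin, tej, krimp, spn-E, Kots, squ and tapas of Drosophila melanogaster. They were taken from a fixed list and found by their FlyBase identifiers. All 10 were present among the 17611 genes of the count table, all 10 had counts, and all 10 passed the filter on low counts in each comparison. RNA-seq had been performed on 9 libraries, 3 for each of 3 groups. The groups are the L(3)mbt mutant, the Lint-O mutant, and yw (yellow white), the wild-type strain of the study. L(3)mbt, lethal (3) malignant brain tumor, is a chromatin protein, and Lint-O is a partner of it that the study purified from ovarian somatic cells. The labels give brain as the tissue. Per the study's methods, the brains of every group were taken from L3 larvae, laid at 25 °C and then grown at 29 °C for 5 to 6 days. The study's methods give the L(3)mbt mutant as the temperature-sensitive allele L(3)mbt ts1 in a w stock, and the Lint-O mutant as a CRISPR allele in the yw background. The L(3)mbt mutant and yw can therefore differ at loci other than l(3)mbt, and each mutant is 1 allele. Neither the labels nor the methods say how many larvae were pooled in a library.

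PIWI-interacting RNAs (piRNAs) are small RNAs that guide PIWI proteins to transposon transcripts in the gonads. In germ cells they are amplified by the ping-pong cycle, in which the slicers Aubergine (aub) and Argonaute 3 (AGO3) cut transposon and piRNA precursor transcripts in turn, each cut making the end of the next piRNA. The cycle takes place in the nuage, granules around the nurse cell nuclei that contain the RNA helicases Vasa (vas) and Spindle-E (spn-E) and a set of Tudor domain proteins. The somatic cells of the ovary have a simpler pathway that uses Piwi without ping-pong, and other somatic tissues are not known for ping-pong.

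Before the genes are described, the labels were checked. The l(3)mbt transcript averaged 1795 ± 98.5 normalized counts (read counts divided by the size factor of the library) in L(3)mbt mutants, 4222 ± 284 in Lint-O mutants and 3204 ± 252 in yw (SD, n = 3 each here and below). The Lint-O transcript averaged 576 ± 4.10 in L(3)mbt mutants, 84.1 ± 4.44 in Lint-O mutants and 506 ± 4.24 in yw, so each mutated gene was lowest in the group named after it. Some markers of the labelled tissue had counts and others were at or near 0. Of 19 neuroblast, neuron and glia genes, 10 stayed under 1 CPM (counts scaled to equal library totals) in every library. They were the neuroblast genes dpn, ase, grh and klu, the neuron genes nSyb, brp, Syt1 and fne, and the glia genes repo and gcm. The highest value of those 10 was 0.853 CPM. The 7 of the 19 that exceeded 10 CPM in every library were insc, elav, Syx1A, cac, moody, loco and nrv2. All 4 markers of ovarian somatic cells exceeded 10 CPM in every library, led by traffic jam (tj) at 403 to 623 CPM and fs(1)Yb at 138 to 166 CPM. In the sample descriptions the yw columns carry the name EGFP. The study also worked with cultured ovarian somatic cells, where GFP siRNA was the control of its knockdown RNA-seq. Whether the libraries described here came from larval brains or from such cells was not tested. If they came from cultured cells, the rearing, alleles and strains given above would not describe them. The groups are called mutant and yw below only because the labels do so. Total counts were 18681293 to 31519287 per library, and 3 counts, the level that a count of 0 allows, correspond to 0.0952 to 0.161 CPM (counting error only).

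Other germline genes were compared between the groups. The 8 germline genes outside the list (nanos, osk, orb, bam, bgcn, pgc, zpg and ovo) summed to 263 to 278 CPM in L(3)mbt mutants, 178 to 191 CPM in Lint-O mutants and 104 to 117 CPM in yw. For nanos, orb, bam, bgcn, zpg and ovo, every library of both mutants was above every yw library. The share of all genes for which this holds was not determined, so these 6 of 8 have no background beside them. pgc was at 46.1 to 56.4 CPM in L(3)mbt mutants, 43.5 to 54.1 CPM in Lint-O mutants and 37.5 to 45.6 CPM in yw. The germline determinant nanos was at 0 to 0.317 CPM in yw, and zpg at 0.0493 to 0.127 CPM. osk had few counts, at 0.0923 to 0.401 CPM in L(3)mbt mutants, 0.268 to 0.469 CPM in Lint-O mutants and 0.317 to 1.23 CPM in yw, and these ranges overlapped. Whether germline cells were present in any sample was not tested. In these bulk samples, more cells of a type and more RNA per cell cannot be told apart.

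Of the 10 genes, 6 rose in L(3)mbt mutants against yw (vas, aub, AGO3, qin, tej and Kots), 0 fell, and tapas, krimp, spn-E and squ did not pass the test. A gene was called in DESeq2 at an adjusted p under 0.01, the level of false discovery set in the study's methods. Over all 10687 genes tested in this comparison, 18.1% were called higher and 12.6% lower. In Lint-O mutants against yw, again 6 rose, the same 6 genes, and 0 fell, where 13.4% of 10422 genes were called higher and 7.52% lower. The 2 comparisons share the yw libraries, so that the second list of 6 is not independent of the first. The median log2 fold change of the 10 genes was 2.07 in L(3)mbt mutants and 2.12 in Lint-O mutants, and that of all genes tested was -0.01 and 0.01. Beside the count of 0 lower, no gene of the list was lower at an unadjusted p under 0.05 in L(3)mbt mutants with DESeq2 or edgeR, and 1 (squ) was in Lint-O mutants with either tool. Between the mutants, 4 genes were higher in L(3)mbt mutants than in Lint-O mutants (vas, qin, tej and Kots) and 0 were lower, with 0 lower at an unadjusted p under 0.05 in either tool. In that comparison 9.22% of 9097 genes were called higher and 5.71% lower.

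**Figure D1:**
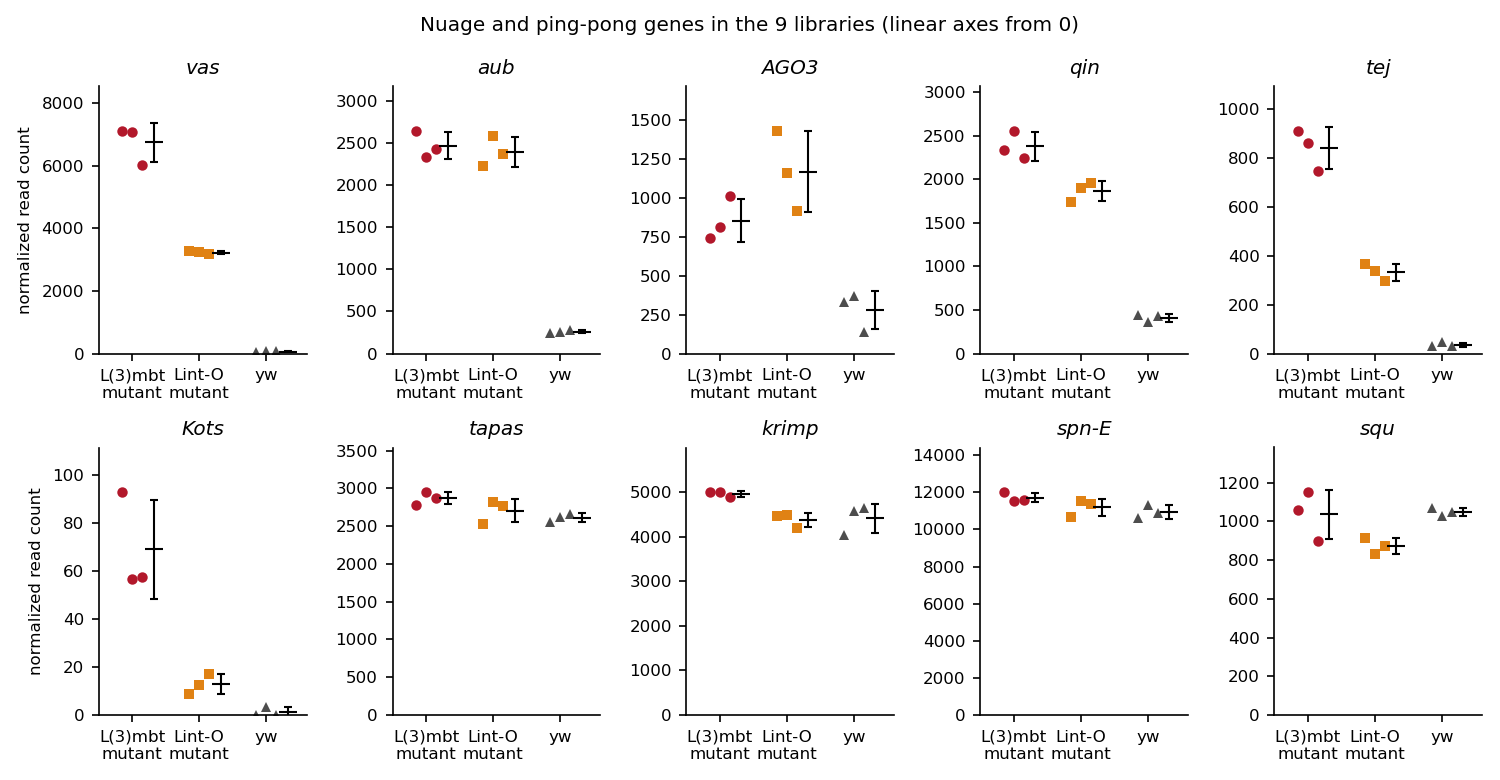
Normalized read counts of the 10 genes in each library, on linear axes that start at 0. Points are libraries, and the black bar is the mean with its SD (n = 3). In vas, aub, AGO3, qin, tej and Kots every library of both mutants lies above every yw library, whereas tapas, krimp, spn-E and squ were not called in either mutant against yw.

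The slicers are described first. aub (FBgn0000146, dm6 chromosome arm 2L, 10997819 to 11001476, minus strand) encodes the PIWI protein that cleaves transposon transcripts. It had 2646, 2333 and 2428 normalized counts in L(3)mbt mutants, 2229, 2577 and 2363 in Lint-O mutants, and 246, 255 and 279 in yw. The ranges of both mutants overlapped each other and stayed apart from yw. On the log2 scale aub rose by 3.24 (SE 0.09, DESeq2 adjusted p = 8.34e-279) in L(3)mbt mutants and by 3.19 (SE 0.09, DESeq2 adjusted p = 1.45e-268) in Lint-O mutants. Between the mutants aub differed by 0.05 on the log2 scale, with a 95% interval of -0.10 to 0.20, so that a difference of up to that size in either direction was not excluded by these libraries. The 79 exon bases that aub shares with TTLL4A on the opposite strand were not counted. TTLL4A itself fell by 0.50 in L(3)mbt mutants and changed by -0.20 (DESeq2 adjusted p = 0.0297, not called) in Lint-O mutants.

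AGO3 (FBgn0250816, chromosome arm 3L, 23554593 to 23689640, plus strand) encodes the partner slicer, which mainly holds sense piRNAs. It had 741, 809 and 1009 normalized counts in L(3)mbt mutants, 1432, 1161 and 914 in Lint-O mutants, and 329, 371 and 138 in yw. The third yw library was the lowest and the coefficient of variation in yw was 44.5%, the widest of the 9 genes with counts in every library. AGO3 rose on the log2 scale by 1.61 (SE 0.39, DESeq2 adjusted p = 1.43e-04) in L(3)mbt mutants and 2.07 (SE 0.39, DESeq2 adjusted p = 9.62e-07) in Lint-O mutants. Without yw replicate 3 it was 1.29 in L(3)mbt mutants and 1.74 in Lint-O mutants, and the gene was still called in both. AGO3 was the only gene of the 6 whose mean was lower in L(3)mbt mutants than in Lint-O mutants, at a log2 difference of -0.45 (95% interval -1.21 to 0.30, DESeq2 adjusted p = 0.441), which was not called.

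Because both slicers take part in the cycle, their levels were set against each other per kilobase of exon. The ratio of aub to AGO3 was 3.20 ± 0.634 in L(3)mbt mutants, 2.30 ± 0.565 in Lint-O mutants and 1.25 ± 0.821 in yw. The yw ratios ran from 0.744 to 2.20, the highest in the third library with its low AGO3, and overlapped those of Lint-O mutants. aub stood above AGO3 in all libraries of both mutants, and below it in the other two yw libraries. Against piwi, the third PIWI gene, aub was at 0.0631 ± 0.00321 in L(3)mbt mutants, 0.0690 ± 0.00456 in Lint-O mutants and 0.00742 ± 2.84e-04 in yw. AGO3 was at 0.0202 ± 0.00409 of piwi in L(3)mbt mutants, 0.0311 ± 0.00655 in Lint-O mutants and 0.00742 ± 0.00339 in yw. In every library of each group piwi remained by far the most abundant of the PIWI transcripts. It averaged 1686 CPM in L(3)mbt mutants, 1485 CPM in Lint-O mutants and 1448 CPM in yw. By western blot the study reports Piwi protein as ectopic in the larval brains of both mutants. These values are RNA, and whether the yw level is one of larval brain was not tested.

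vas (FBgn0283442, chromosome arm 2L, 15061656 to 15074311, plus strand) encodes a DEAD-box RNA helicase of the nuage that, in silkworm cells, was shown to hand cleaved transcripts from one slicer to the other. It had 7119, 7086 and 6019 normalized counts in L(3)mbt mutants, 3273, 3228 and 3176 in Lint-O mutants, and 44.2, 69.8 and 71.6 in yw. The 3 groups did not overlap. On the log2 scale vas rose by 6.75 (SE 0.13) in L(3)mbt mutants and 5.69 (SE 0.13) in Lint-O mutants, and the DESeq2 adjusted p of both was 0, that is, below the smallest number stored. Among all genes tested, vas had the 34th largest increase of 10687 in L(3)mbt mutants and the 25th of 10422 in Lint-O mutants. The level in L(3)mbt mutants was 2.09-fold that in Lint-O mutants (log2 1.06, SE 0.07, DESeq2 adjusted p = 3.34e-43). The exons of vas share 563 bases with solo, a gene of sister chromatid cohesion on the same strand, which is 24.6% of the exon length. Reads in those bases were not counted, so that vas was measured through its other 1722 bases. solo, measured through its own exons, had a mean of 202 ± 28.1 normalized counts in L(3)mbt mutants, 119 ± 14.0 in Lint-O mutants and 5.58 ± 3.18 in yw. Its log2 fold change was 5.28 (SE 0.40) in L(3)mbt mutants and 4.51 (SE 0.41) in Lint-O mutants, so that both genes of the shared locus rose.

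spn-E (FBgn0003483, chromosome arm 3R, 15837419 to 15844415, plus strand), the other helicase, carries a Tudor domain and is required for ping-pong piRNAs. It was already abundant in yw and averaged 11721 ± 258 normalized counts in L(3)mbt mutants, 11187 ± 469 in Lint-O mutants and 10940 ± 360 in yw. The log2 fold change was 0.10 (95% interval -0.00 to 0.20, DESeq2 adjusted p = 0.116) in L(3)mbt mutants and 0.03 (-0.07 to 0.13, DESeq2 adjusted p = 0.724) in Lint-O mutants. All 3 L(3)mbt libraries were above the yw libraries for spn-E, and its call depended on the scaling, as given with krimp below. The study names spindle-E and krimper, with vasa, aub and tej, among genes raised in both mutant brains. Here vas, aub and tej were called higher in both mutants, and spn-E and krimp did not pass the test in either. Why they differ from the study was not tested.

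The Tudor domain genes, whose proteins bind methylated arginines of the PIWI proteins and hold the nuage together, fell into those that rose and those that did not pass the test. qin (FBgn0263974, chromosome arm 3R, 18591027 to 18650137, plus strand) encodes a RING and Tudor domain protein that keeps ping-pong between Aub and AGO3 rather than between Aub molecules. It had 2329, 2557 and 2238 normalized counts in L(3)mbt mutants, 1738, 1900 and 1953 in Lint-O mutants, and 447, 358 and 428 in yw. No library of one group reached the range of another. On the log2 scale qin rose by 2.53 (SE 0.09, DESeq2 adjusted p = 2.07e-176) in L(3)mbt mutants and 2.18 (SE 0.09, DESeq2 adjusted p = 1.85e-128) in Lint-O mutants, and the mutants differed by 0.35 (SE 0.08, DESeq2 adjusted p = 2.08e-04).

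tej (FBgn0033921, chromosome arm 2R, 14300103 to 14302353, minus strand) encodes Tejas, a LOTUS and Tudor domain protein that recruits Vasa and Spindle-E to the nuage. It had 913, 862 and 746 normalized counts in L(3)mbt mutants, 366, 339 and 297 in Lint-O mutants, and 31.3, 45.4 and 29.7 in yw. The groups did not overlap, and L(3)mbt mutants was 2.51-fold above Lint-O mutants (log2 1.33, SE 0.12, DESeq2 adjusted p = 1.70e-25). Against yw the log2 fold change was 4.60 (SE 0.18, DESeq2 adjusted p = 1.05e-142) in L(3)mbt mutants and 3.27 (SE 0.18, DESeq2 adjusted p = 6.43e-69) in Lint-O mutants. tapas (FBgn0027529, chromosome arm 2R, 20319180 to 20325973, plus strand) is the paralogue of tej, and acts with it in the piRNA pathway. It averaged 2871 ± 82.5 normalized counts in L(3)mbt mutants, 2703 ± 153 in Lint-O mutants and 2612 ± 58.2 in yw. Its log2 fold change was 0.14 (95% interval 0.02 to 0.26, DESeq2 adjusted p = 0.0650) in L(3)mbt mutants and 0.05 (-0.07 to 0.17, DESeq2 adjusted p = 0.630) in Lint-O mutants, and neither was called. Per kilobase, tej stood at 0.667 ± 0.0777 of tapas in L(3)mbt mutants, 0.283 ± 0.0430 in Lint-O mutants and 0.0309 ± 0.00746 in yw.

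krimp (FBgn0034098, chromosome arm 2R, 16238103 to 16240722, minus strand) encodes Krimper, which brings AGO3 and Aub together. It had 4999, 4999 and 4880 normalized counts in L(3)mbt mutants, 4461, 4482 and 4200 in Lint-O mutants, and 4033, 4565 and 4637 in yw. The L(3)mbt libraries were above all others, but by little. The log2 fold change of 0.17 (95% interval 0.05 to 0.29, DESeq2 adjusted p = 0.0201) in L(3)mbt mutants was not called, nor was that of -0.01 (-0.13 to 0.11, DESeq2 adjusted p = 0.936) in Lint-O mutants. The call on krimp depended on the scaling and on 1 library. With total counts as size factors its log2 fold change in L(3)mbt mutants was 0.23 (DESeq2 adjusted p = 0.00101), and without yw replicate 3 it was 0.21 (DESeq2 adjusted p = 0.00618). With total counts, tapas (0.19, DESeq2 adjusted p = 0.00440) and spn-E (0.16, DESeq2 adjusted p = 0.00759) were also called higher in that mutant.

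Kots (FBgn0038191, chromosome arm 3R, 13960712 to 13964174, minus strand) encodes a Tudor domain protein and was the least abundant of the 10. It had 102, 54 and 70 raw counts in L(3)mbt mutants, 9, 12 and 14 in Lint-O mutants, and 0, 3 and 0 in yw. The groups were apart, but the yw level rests on 3 reads of 1 library. Scaled by size factor, the summed counts gave a ratio to yw of 71.4 in L(3)mbt mutants (exact 95% interval 24.1 to 348.9, counting error only) and of 12.97 in Lint-O mutants (4.09 to 65.9). The DESeq2 log2 fold change was 6.13 (SE 0.90, adjusted p = 1.05e-10) in L(3)mbt mutants and 3.69 (SE 0.93, adjusted p = 4.98e-04) in Lint-O mutants. Without yw replicate 2, yw has no count left, and Kots was then at least 22.99-fold higher in L(3)mbt mutants and at least 4.29-fold higher in Lint-O mutants, set against 3 normalized counts per library. Without yw replicate 3 the DESeq2 value was 5.35 in L(3)mbt mutants and 2.92 in Lint-O mutants (DESeq2 adjusted p = 0.00994). Without yw replicate 1 the DESeq2 value in Lint-O mutants was 3.16, and without either of these libraries the gene was still called. In the comparison of the mutants, which does not use yw, Kots differed by 2.44 on the log2 scale (SE 0.43, DESeq2 adjusted p = 3.30e-07).

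squ (FBgn0267347, chromosome arm 2L, 16680054 to 16681653, plus strand) encodes Squash, a nuage protein that binds Aub. It had 1058, 1152 and 901 normalized counts in L(3)mbt mutants, 916, 832 and 872 in Lint-O mutants, and 1071, 1027 and 1050 in yw. The Lint-O libraries were all below the yw libraries, and the L(3)mbt libraries spread over both ranges. The log2 fold change was -0.02 (95% interval -0.20 to 0.16, DESeq2 adjusted p = 0.890) in L(3)mbt mutants and -0.27 (-0.44 to -0.09, DESeq2 adjusted p = 0.0164) in Lint-O mutants, and neither was called. The Lint-O value passed the threshold when only the 2 groups were fitted (-0.27, DESeq2 adjusted p = 0.00829) or L(3)mbt replicate 3 was left out (DESeq2 adjusted p = 0.00463). squ shares 16.3% of its exon length with grp, a checkpoint kinase gene on the same strand, which was not called in either mutant.

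**Figure D2:**
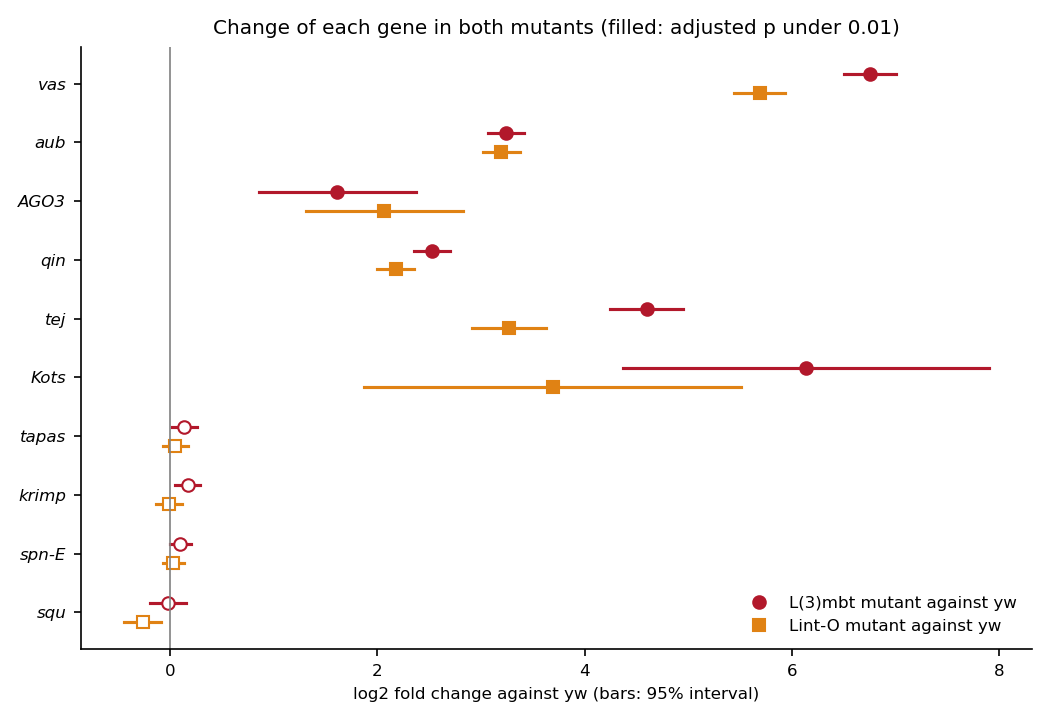
Log2 fold changes against yw of the 10 genes with their 95% intervals, L(3)mbt mutant above Lint-O mutant, from the DESeq2 fit over all 9 libraries. Filled symbols passed an adjusted p of 0.01. vas, tej, Kots and qin lie further right in L(3)mbt mutants, aub lies at the same place in both, and the intervals of AGO3 and Kots are the widest.

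The order of the genes differed between groups. Levels of different genes were compared as normalized counts per kilobase of exon that no other gene of the table overlaps. In yw the order was spn-E (2339), krimp (1731), squ (913), tapas (591), aub (88.6), AGO3 (87.8), qin (67.9), vas (35.9), tej (18.3) and Kots (0.365). The 4 genes that were not called against yw were thus the 4 most abundant in yw, each at 591 or more, and the 6 that rose were the 6 least abundant. Neighbours in this order overlapped for aub and AGO3 and for AGO3 and qin. In L(3)mbt mutants vas came first at 3915, followed by spn-E (2506), krimp (1946), squ (902), aub (841), tapas (649), tej (433), qin (392), AGO3 (268) and Kots (21.6). There squ and aub overlapped, as did tej and qin. In Lint-O mutants vas came second at 1873, between spn-E (2391) and krimp (1719), followed by aub (814), squ (760), tapas (611), AGO3 (367), qin (308), tej (172) and Kots (4.03), with overlaps of aub and squ and of AGO3 and qin.

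**Figure D3:**
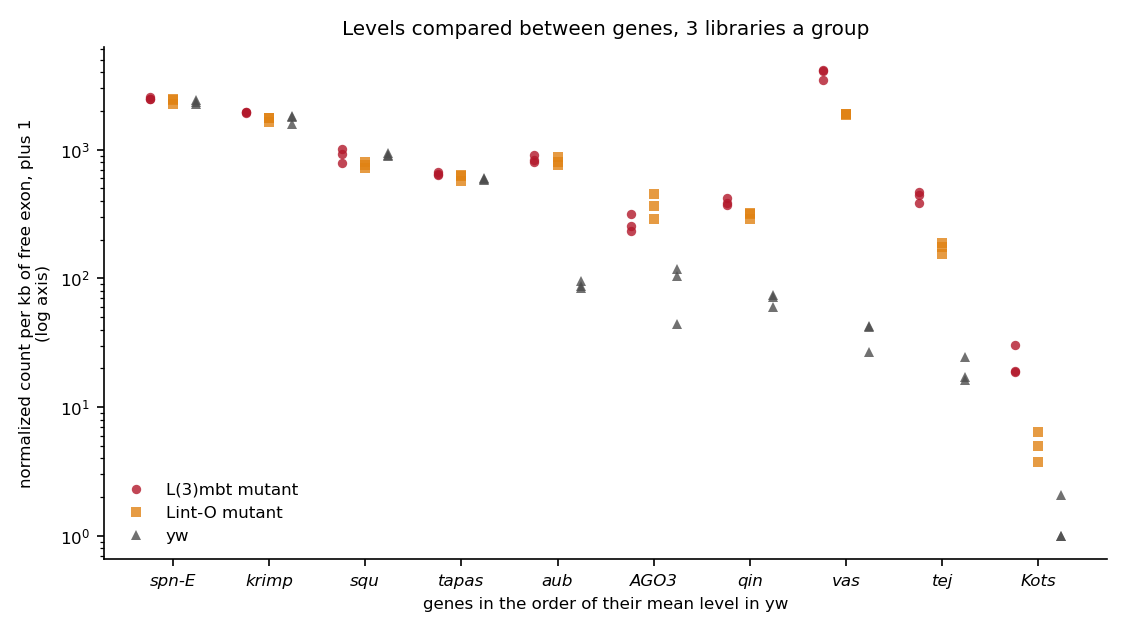
Levels of the 10 genes per kilobase of free exon (normalized counts per kb plus 1, log axis), ordered by their mean in yw, with the 3 libraries of each group as points. The 4 genes on the left were not called in either mutant against yw, and from aub rightwards the mutants stand above yw, most of all in vas (3915 in L(3)mbt mutants, 1873 in Lint-O mutants and 35.9 in yw).

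In terms of all 13292 genes with a count and enough free exon, the level of vas per kilobase stood at the 96.3rd percentile in L(3)mbt mutants, the 91.5th in Lint-O mutants and the 46.1st in yw. Kots stood at percentile 39.7 in L(3)mbt mutants, 29.3 in Lint-O mutants and 14.3 in yw. Relative to aub, vas was at 4.66 ± 0.481 in L(3)mbt mutants, 2.31 ± 0.184 in Lint-O mutants and 0.404 ± 0.0853 in yw, and the groups did not overlap. The 10 genes together took 1425 to 1527 CPM in L(3)mbt mutants, 1208 to 1267 CPM in Lint-O mutants and 819.5 to 874.3 CPM in yw. The 6 genes that rose summed to 543.8 to 609.3 CPM in L(3)mbt mutants, 379.0 to 403.9 CPM in Lint-O mutants and 39.4 to 46.8 CPM in yw. The other 4 summed to 881 to 918 CPM in L(3)mbt mutants, 812 to 863 CPM in Lint-O mutants and 773 to 828 CPM in yw. The split into 6 and 4 follows the calls in these same libraries, so that the contrast of the sums is no separate result.

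The other genes of the piRNA pathway were examined as a list of 31, of which 30 were tested. armi shares nearly all of its exon sequence with another gene and was not tested. In L(3)mbt mutants 9 rose and 6 fell, and in Lint-O mutants 7 rose and 3 fell, with median log2 fold changes of 0.13 and 0.07. Over all genes tested the shares were 18.1% higher and 12.6% lower in L(3)mbt mutants, and 13.4% higher and 7.52% lower in Lint-O mutants. These shares are also the background of the subset counts below. Between the mutants 5 were higher in L(3)mbt mutants and 2 were lower, where 9.22% of 9097 genes were called higher and 5.71% lower. Of the 16 tested genes of cytoplasmic biogenesis and nuage, 3 rose (Hen1, vret and mael) and 4 fell (tud, csul, SoYb and shu) in L(3)mbt mutants, and 2 rose (Hen1 and vret) and 1 fell (shu) in Lint-O mutants. Among them Hen1, which methylates the ends of piRNAs, rose by 1.05 on the log2 scale in L(3)mbt mutants and by 0.56 in Lint-O mutants. tud, the founding Tudor domain gene, fell by 0.30 in L(3)mbt mutants and changed by 0.08 in Lint-O mutants (DESeq2 adjusted p = 0.435).

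Of the 7 genes of the Rhino complex and cluster export, which drive the transcription and export of piRNA precursors in germ cells, 4 rose and 1 fell in each mutant. Boot, cuff and rhi rose in both, with TfIIA-S-2 in L(3)mbt mutants and Nxf3 in Lint-O mutants, and those that fell were del in L(3)mbt mutants and moon in Lint-O mutants. Boot, the partner of the export factor Nxf3, rose by 3.05 in L(3)mbt mutants and by 1.48 in Lint-O mutants. cuff and rhi, of the Rhino complex itself, rose by 0.89 and 0.45 in L(3)mbt mutants and by 0.91 and 0.47 in Lint-O mutants. TfIIA-S-2, a transcription factor subunit used at piRNA clusters, rose by 1.39 in L(3)mbt mutants (DESeq2 adjusted p = 4.99e-04) and had a value of 0.09 in Lint-O mutants (DESeq2 adjusted p = 0.912). Its partner moon was lower by -0.60 in L(3)mbt mutants (DESeq2 adjusted p = 0.0633, not called) and fell by 1.04 in Lint-O mutants (DESeq2 adjusted p = 0.00164). Of the 7 genes of nuclear silencing, 2 rose and 1 fell in L(3)mbt mutants and 1 rose and 1 fell in Lint-O mutants. The silencing factor nxf2 rose by 0.38 in L(3)mbt mutants and 0.28 in Lint-O mutants, and Panx, which acts with it, fell by 0.42 and 0.29. piwi rose by 0.16 in L(3)mbt mutants (DESeq2 adjusted p = 0.00665) and had a value of -0.02 in Lint-O mutants. The study names piwi, SoYb, vret and nxf2 among genes raised in both mutant brains. Here vret and nxf2 rose in both mutants, and piwi rose in L(3)mbt mutants only. SoYb fell by 0.27 in L(3)mbt mutants and was not called in Lint-O mutants. The counts depended on single libraries. Without yw replicate 2 the list of 30 had 4 genes higher in each mutant, and without L(3)mbt replicate 1 it had 5 higher in L(3)mbt mutants. In Lint-O mutants it had 4 higher without yw replicate 1 or without Lint-O replicate 1 or 2. Also in Lint-O mutants, 1 gene was lower without yw replicate 2, yw replicate 3 or Lint-O replicate 2, and 0 without Lint-O replicate 3.

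**Figure D4:**
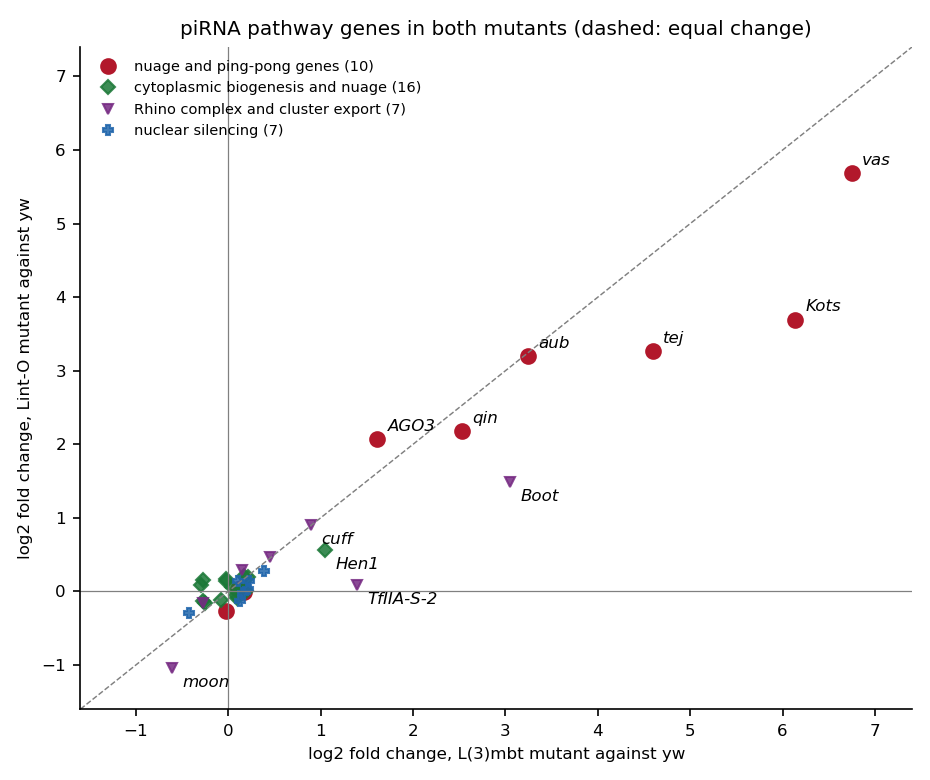
Log2 fold change in L(3)mbt mutants (x axis) and in Lint-O mutants (y axis), both against the same yw libraries, for the 10 nuage and ping-pong genes and the 30 tested genes of the rest of the pathway. The dashed line marks equal change. vas, Kots, tej and Boot lie below the line, aub lies on it, and most other pathway genes lie near 0.

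To see whether the changes extended beyond the genes themselves, the 2 nearest genes on each side of each of the 10 were examined, 40 genes in all. Genes that overlap one of the 10 were left out. Among those left out, solo rose in both mutants, and TTLL4A and CG31224 fell in L(3)mbt mutants. This set was chosen after the values of the 10 genes were known. Of 34 neighbours tested, 6 (17.6%) rose in L(3)mbt mutants and 4 (11.8%) in Lint-O mutants, against 18.1% and 13.4% of all genes, so that neighbours rose at about the background share. In L(3)mbt mutants 4 of the 34 fell (Arpc3A, CG13868, CG8613 and RpL9) and in Lint-O mutants 1 (Arpc3A), by no more than 0.35 on the log2 scale. These are 11.8% and 2.94% of the neighbours tested, where 12.6% and 7.52% of all genes fell. Individual neighbours are named here after their values were seen. CG33679, on the same strand 2536 bp upstream of vas, averaged 614 ± 43.7 normalized counts in L(3)mbt mutants, 519 ± 56.0 in Lint-O mutants and 37.2 ± 15.7 in yw (log2 fold changes 4.09 and 3.84). TfIIS, which lies between CG33679 and vas, had values of -0.03 and -0.16 and was not called.

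lectin-33A, transcribed away from aub and 596 bp from it, averaged 28.7 ± 13.5 normalized counts in L(3)mbt mutants, 35.3 ± 4.09 in Lint-O mutants and 7.86 ± 1.78 in yw. It rose by 1.83 in L(3)mbt mutants and 2.15 in Lint-O mutants. On the other side of aub, piwi rose by 0.16 in L(3)mbt mutants, and CG12253 rose by 0.45 in Lint-O mutants. Ih, an ion channel gene whose end lies 8 bp from the end of tej on the opposite strand, averaged 155 ± 9.40 in L(3)mbt mutants, 78.1 ± 6.92 in Lint-O mutants and 52.9 ± 8.37 in yw, and it rose by 1.54 in L(3)mbt mutants and had a value of 0.55 in Lint-O mutants (DESeq2 adjusted p = 0.0445, not called). The difference between the mutants was itself called (0.99, DESeq2 adjusted p = 1.25e-05). Whether reads from past the end of tej were counted to Ih was not tested, and the use of strand in counting is not given. cv-d, which ends 51 bp from the end of spn-E on the opposite strand, rose by 1.29 in L(3)mbt mutants and 1.22 in Lint-O mutants although spn-E was not called. Its level was 2098 ± 147 in L(3)mbt mutants, 1998 ± 120 in Lint-O mutants and 854 ± 45.1 in yw. CG4546, next to it, rose by 1.34 in L(3)mbt mutants and had a value of 0.79 in Lint-O mutants.

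**Figure D5:**
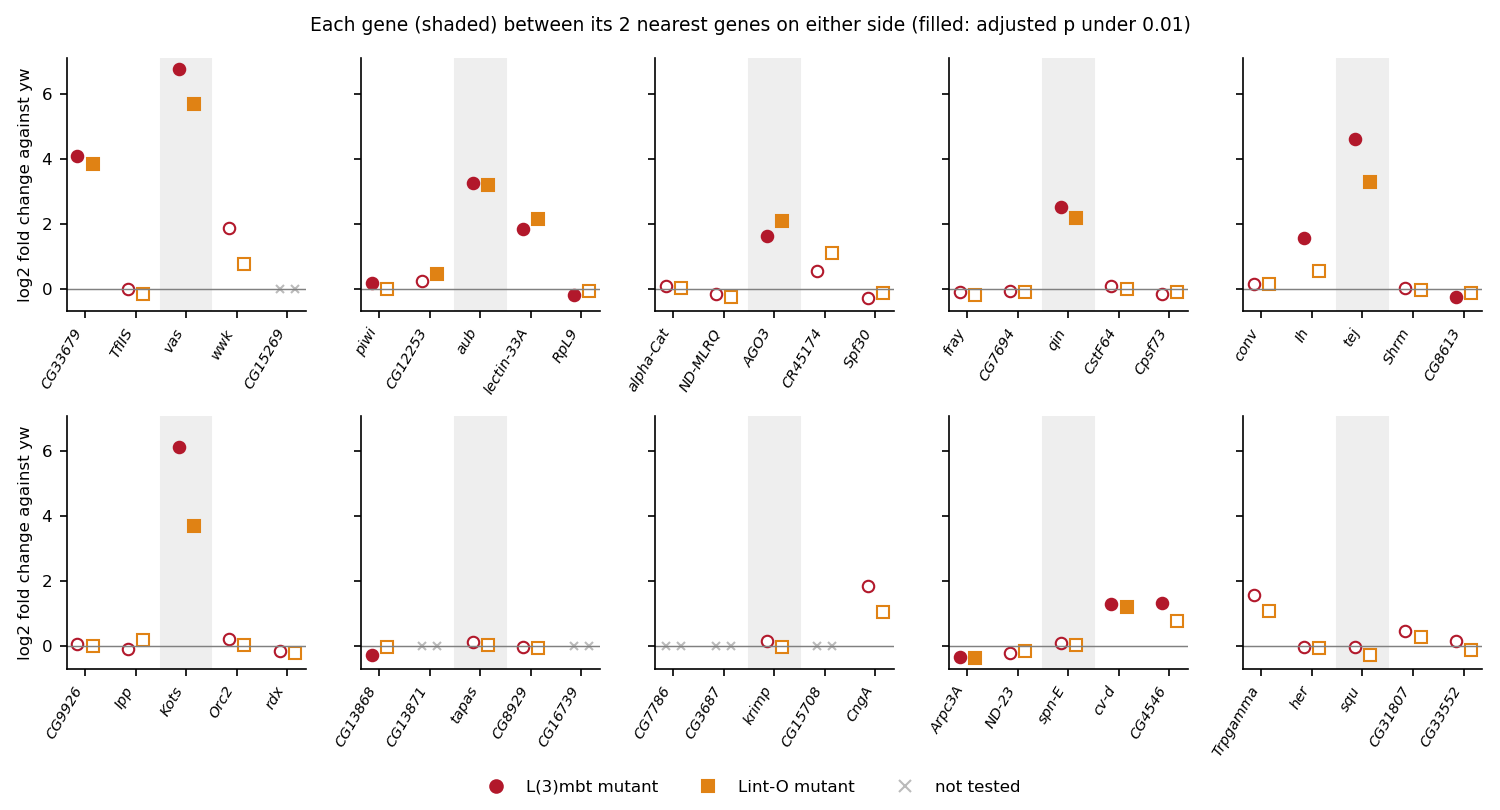
Log2 fold change against yw of each of the 10 genes (shaded column) and of its 2 nearest genes on either side that do not overlap it. Genes are in their order on the chromosome, with L(3)mbt left of Lint-O. Filled symbols passed an adjusted p of 0.01 and crosses were not tested. CG33679 near vas, lectin-33A near aub, Ih near tej and cv-d near spn-E stand out, and no neighbour of qin, Kots, AGO3 or squ was called against yw. The neighbours of krimp were not tested except CngA, which was not called.

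Last, the genes whose pattern over the 9 libraries was most like that of vas and aub were listed, as a description over libraries that share 3 groups. For vas these were Vdup1 (Pearson r = 0.999 on log2 normalized counts plus 1), Acox57D-p (0.998) and CG6652 (0.998), and 615 of 8932 genes had r over 0.95. Vdup1 averaged 842 ± 21.0 normalized counts in L(3)mbt mutants, 572 ± 32.1 in Lint-O mutants and 39.8 ± 6.51 in yw. For aub they were CG6409, yellow-f2 and Cubn2 (0.998 each), and 524 of 8932 genes had r over 0.95. CG6409 averaged 332 ± 12.6 normalized counts in L(3)mbt mutants, 291 ± 32.5 in Lint-O mutants and 9.16 ± 1.15 in yw.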

How the data were processed

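The authors deposited raw counts, whole numbers of reads for each gene in each library, without normalization. Per the methods and the submitters' processing notes, poly-A RNA was made into libraries with a stranded kit, ribosomal RNA reads were set aside, HISAT2 aligned the rest to dm6, and featureCounts counted them. The tool versions, the annotation and the use of strand are not given in the sources used here. All 9 columns were assigned to samples by the names in the sample descriptions. Symbols and positions were taken from Ensembl release 115, which matched 17559 of 17611 identifiers. Of 581 genes with nearly all exon bases shared with other genes, 573 had no count, and of 137 that share them on the opposite strand only, 135 had none. Shared bases were therefore taken as not counted, and levels per kilobase used the free exon length.

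DESeq2 1.42.0 (R 4.3.3) was run over all 9 libraries with 1 coefficient per group, median-of-ratios size factors, a two-sided Wald test, Cook's cutoff, independent filtering at its default, and Benjamini-Hochberg adjustment over all genes tested. CPM was computed here from the counts. Ratios of Kots counts have exact binomial intervals of 95%. In data simulated for L(3)mbt mutants against yw, DESeq2 called 93 of 100 genes changed by 1 on the log2 scale, 99 of 100 changed by 3, and 6 of 8748 unchanged genes. These counts apply only to the settings of those data. Whether they hold for genes with a wide spread or few counts in yw, such as AGO3 and Kots, was not tested. The alternatives were edgeR 4.0.16 (quasi-likelihood), TMM or total-count scaling, a low-count filter (at least 10 counts in 3 libraries), no Cook's cutoff or independent filtering, a replicate block, 2 groups only, each library left out, a threshold of 0.05 and a minimum fold of 2.

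Named were all 10 genes, other pathway genes called with an absolute log2 fold change of at least 1 and the 5 next largest, exon partners, the mutated genes, and the 3 genes most like vas and aub among those with a mean of at least 10. The genes and lists were chosen with earlier results of these data known. The study's legend calls the libraries biological triplicates, but the labels do not name separate cultures or animals. P-values then measure only the spread between these libraries, which may be technical.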

Additional observations from a re-analysis of the deposited data

How the results depend on the processing

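No call on a gene of the 10 changed direction under any alternative, and 528 of 540 values of single genes kept their direction and their side of the threshold. Of the 10 genes, 6 were higher in L(3)mbt mutants, 6 in Lint-O mutants and 4 between the mutants also with edgeR. With total counts 9 were higher in L(3)mbt mutants (tapas, krimp and spn-E in addition), 6 in Lint-O mutants and 4 between the mutants. At a threshold of 0.05, 7 were higher in L(3)mbt mutants (krimp in addition), 6 in Lint-O mutants and 6 between the mutants (krimp and squ in addition). Leaving out each library in turn gave 6 to 7 genes higher in L(3)mbt mutants, 6 in Lint-O mutants and 4 to 5 between the mutants, and 0 to 1 lower in Lint-O mutants. The median log2 fold change of the 10 then ran from 1.92 to 2.16 in L(3)mbt mutants, 1.98 to 2.22 in Lint-O mutants and 0.17 to 0.27 between the mutants. The 1 gene lower in Lint-O mutants was squ, which was called with 2 groups only, without L(3)mbt replicate 3 and at a threshold of 0.05 (1 gene each). At a minimum fold of 2, qin was no longer called between the mutants. Of the other pathway genes, edgeR called 3 higher between the mutants, total counts gave 3 lower in L(3)mbt mutants and 1 lower in Lint-O mutants, and a minimum fold of 2 left 3 higher and 0 lower in L(3)mbt mutants, 1 higher and 1 lower in Lint-O mutants, and 2 higher and 0 lower between them. Leaving out each library gave 4 to 9 higher and 4 to 6 lower in L(3)mbt mutants, 4 to 7 higher and 0 to 2 lower in Lint-O mutants, and 2 to 6 higher between them. The cause of these changes was not tested. The shares of all genes called that are given earlier belong to the main fit and its threshold. Such shares are not given here for the other settings, so the counts under those settings have no background beside them. With total counts, 71.2% of calls in L(3)mbt mutants and 77.9% in Lint-O mutants were higher, against 59.0% and 64.0% with median-of-ratios factors. With all annotated exon length, 8 of 9 neighbouring pairs kept their order of levels in each group.

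Deviations from the group means correlated at -0.167 to 0.116 over 9 pairs of the same replicate number, 1 of them over 0.1. Over 18 pairs of different numbers they correlated at -0.0901 to 0.155. The same-number pairs of Lint-O mutants and yw were at 0.0470, 0.0818 and 0.116, and those of L(3)mbt mutants and yw at -0.037, -0.0846 and -0.167. The check cannot decide whether the numbers pair the libraries, because deviations within a group sum to 0. With a replicate block, 6 of the 10 genes were higher in L(3)mbt mutants, 6 in Lint-O mutants and 4 between the mutants, and the median log2 fold changes were 2.12, 2.14 and 0.21. Low counts in yw limit the fold changes of Kots, whose yw level rests on 3 counts, of solo (2.28 to 8.62 normalized counts per yw library) and of lectin-33A (5.82 to 9.13).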
